A study of Mus musculus with 15 samples.

Results

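The ribosome-bound and the unbound RNA fraction of mouse kidneys on day 5 of ureteral obstruction were compared, which took 6 of the 15 arrays of the series. The 3 bound arrays (10, 11 and 12) and the 3 unbound arrays (13, 14 and 15) were chosen by their labels. Every mouse of the series carried the transgene Tg:Col1a1-eGFPL10a on a C57/129sv background, although the source names read WT. This construct puts a fusion of eGFP and ribosomal protein L10a behind the promoter and enhancer of collagen 1α1, so ribosomes are tagged in the cells in which that element is active. The day 5 mice had undergone unilateral ureteral obstruction (UUO). The sham kidneys, collected on day 0, gave 3 bound arrays (1, 2 and 3) and 3 unbound arrays (4, 5 and 6) used here beside them. All samples are labelled as both sexes, Theiler stage 28 and postnatal day 14 to 300, so the arrays are not matched for age or sex by their labels. The bound fraction is labelled kidney pericytes, described as periarterial fibroblasts of the medulla, and the unbound fraction kidney medulla. The labels do not tell whether separate animals lie behind the arrays within each group. The p-values thus reflect only the spread among the 15 arrays of the series, and 3 arrays a group limit their precision.

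Translating ribosome affinity purification (TRAP) lyses a tissue and pulls the tagged ribosomes down with an antibody, together with the messages they are translating, while untagged ribosomes stay in the supernatant. In an obstructed kidney, urine backs up, tubules are injured and the interstitium fills with myofibroblasts, contractile cells that arise largely from pericytes and perivascular fibroblasts and deposit fibrillar collagen. A message at a higher level in the bound than in the unbound fraction is read as one that cells with an active collagen 1α1 element use more than the rest of the kidney does. In such bulk fractions, fewer cells of a type and less RNA per cell cannot be told apart.

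Values below are log2 intensities after quantile normalization, and values in a series are always in array order. Differences are bound minus unbound on the log2 scale ± standard error, and adjusted p-values come from limma over 16864 genes. A gene passed when its adjusted p was below 0.05. Where a group mean lay at or below the highest negative control of its arrays (log2 3.41 to 4.92 on the day 5 arrays), a fold is given as a lower bound.

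The 6 arrays did not all look alike. Deposited medians ran from 16.4 on bound array 11 to 198.8 on unbound array 15. Arrays 12 and 15 were bright, with hybridization controls averaging 12343 and 12723 against 4727 to 5864 on the other 4 arrays. The same arrays had Xist at 10.09 and 8.71, against 1.16 to 3.96 on the other 4, and lower Y-linked signal. Whether these 2 arrays share an animal or a lysate is not told by the labels. Array 11 had a Gapdh 5' to 3' ratio of 0.0269, against 0.331 to 0.583 on the other 5. Correlations across genes were 0.931 to 0.961 among bound arrays, 0.971 to 0.973 among unbound arrays and 0.900 to 0.928 between the fractions. The 18S rRNA control stood at 10.29 to 11.31 on the bound arrays and 7.87 to 8.76 on the unbound arrays.

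Of 16864 genes, 2380 (14.1%) differed between the fractions, 1075 (6.37%) higher and 1305 (7.74%) lower in the bound fraction. The difference was at least 2-fold for 959 of the higher and 1103 of the lower genes, at least 4-fold for 422 and 400, and at least 8-fold for 85 and 40. The bound and unbound arrays did not overlap for 7253 genes (43.0%), and 5108 had an unadjusted p below 0.05. When only the day 5 arrays were fitted, 3226 genes passed, 2067 of them shared with the fit of all arrays. With the arrays centred on their medians in place of quantile normalization, 1607 passed as higher and 757 as lower, so that 68.0% of the genes that passed were higher, against 45.2% with quantile normalization. The median over all genes moved with it, to 0.41 against 0.03.

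The count depended on single arrays. Dropping bound array 10, 11 or 12 left 1260, 1739 or 1336 genes, and dropping unbound array 13, 14 or 15 left 1097, 844 or 947. The series held 4 bright arrays: 12, 15, day 0 unbound array 6 and day 2 bound array 9. With all 4 dropped, 2 bound and 2 unbound arrays were left on day 5. Only Bnipl then passed (lower, adjusted p 0.00809, with the bound fraction at the negative controls), while 3413 genes had an unadjusted p below 0.05. Over all 16864 genes, 13177 (78.1%) had the same sign in array 12 minus array 15 as in arrays 10 and 11 minus arrays 13 and 14.

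**Figure D1:**
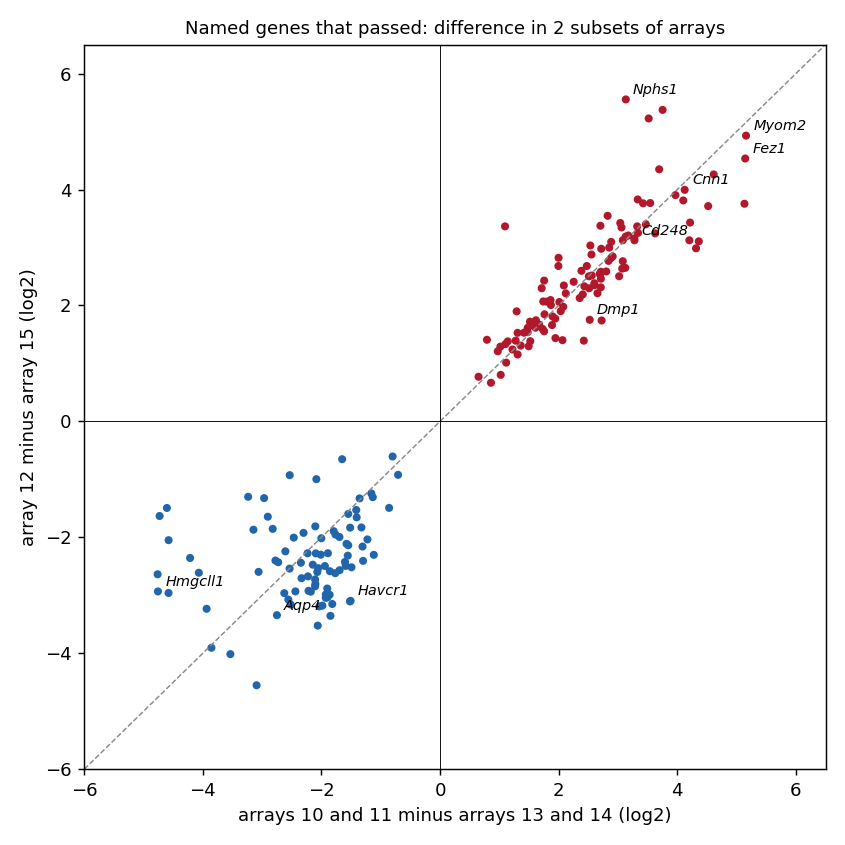
Difference between bound and unbound fraction for the 204 named genes that passed, in the bright pair (array 12 minus array 15, vertical axis, log2) against the other arrays (10 and 11 minus 13 and 14, horizontal axis, log2). The 114 genes higher in the bound fraction are red, the 90 lower ones are blue, and the dashed line marks equal values. All 204 have the same sign on both axes. They were chosen by passing a test of the difference between these same 6 arrays, so the shared direction is no sign of stability.

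The labelled cell type was checked against its defining markers. Of 9 fibroblast markers, 6 were higher in the bound fraction (Thy1, Fbln1, Mfap5, Dpt, Col1a1 and Col1a2) and all 9 differences were positive, with a median of 1.58. Pdgfra (0.75, adjusted p 0.0868), Dcn (1.70, adjusted p 0.0521) and Lum (1.63, adjusted p 0.173) did not pass. Of 9 pericyte and smooth muscle markers, 4 were higher (Cspg4, Acta2, Cnn1 and Des), with a median of 1.23 and again all 9 positive. Pdgfrb (0.94, adjusted p 0.0674), Rgs5 (0.42), Mcam (0.52), Notch3 (1.23) and Myh11 (2.43, adjusted p 0.0636) did not pass. None of the 18 was absent: the bound means ran from 7.54 to 13.35 for fibroblast markers and from 9.41 to 13.60 for pericyte and smooth muscle markers.

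Messages abundant in both fractions differed little, whatever their cell type. For the 710 genes with both fraction means at 12 or above, differences ran only from -1.18 to 1.19, while for the 5524 genes with the lower of their means under 6 they ran from -4.15 to 5.08. The highest value on any of the 6 arrays was 14.20. Among the 710 abundant genes 9 were higher in the bound fraction, among them Serping1, Tagln, Pcolce, Acta2, Palld, Col1a2 and Col1a1. Another 13 were lower, among them the tubular genes Defb1, Fxyd2, Kap and Umod. Requiring both means to be high, under a top value of 14.20, itself limits how large a difference can be. Genes abundant in the bound fraction alone differed more, such as Mmp23 (bound mean 12.365, difference 2.40) and Col6a2 (12.495, 1.81). The small difference of Col1a1, a member of the selected group, was therefore not read further.

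**Figure D2:**
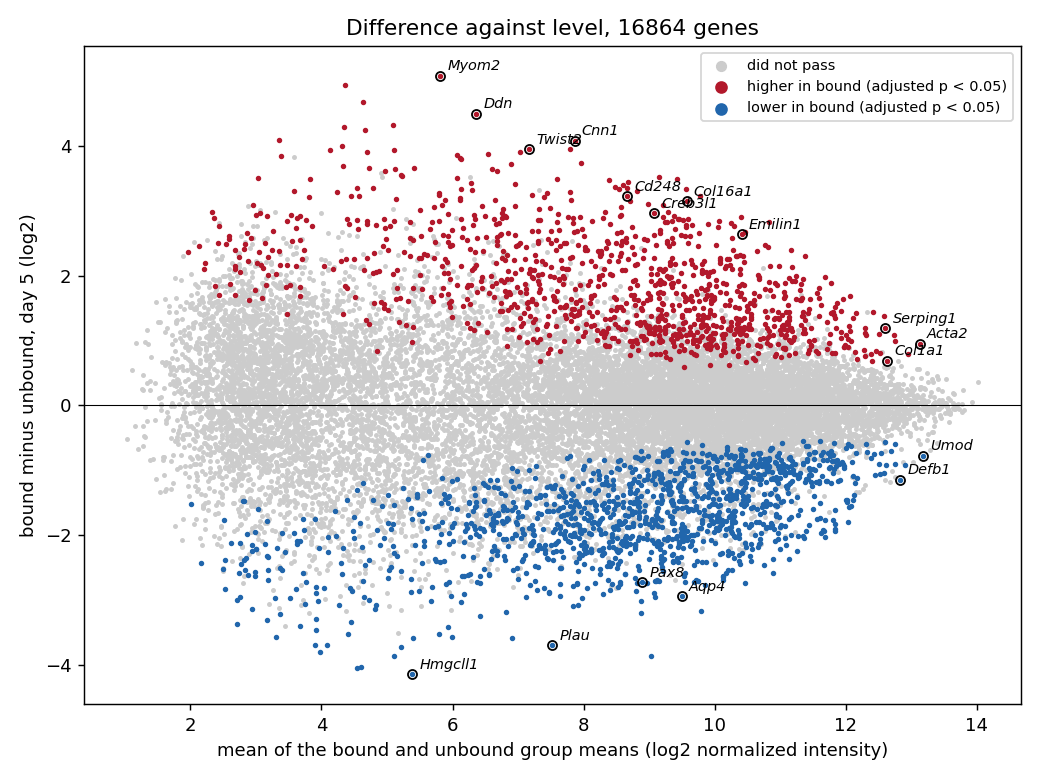
Difference between bound and unbound fraction (vertical axis, log2) against the mean of the 2 fraction means (horizontal axis, log2 intensity) for 16864 genes. Red points passed as higher and blue points as lower in the bound fraction, grey points did not pass, and circles mark the labelled genes. The cloud narrows to the right: Acta2 (0.95), Col1a1 (0.69) and Umod (-0.78) lie nearer zero, while Myom2 and Hmgcll1, at low levels, lie farthest from it.

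The 12 highest differences among genes with separate fractions belonged mostly to genes near background in the unbound fraction. Myom2, a structural protein of the sarcomere M-band, read 10.09, 6.62 and 8.36 on the bound arrays against 2.40, 3.99 and 3.43 on the unbound arrays. It was at least 21.7-fold higher (adjusted p 0.00294), with array 11 the lowest of the bound arrays. Fez1, an adaptor of axonal transport, was at least 7.95-fold higher, Lrrn2 at least 8.76-fold, Mylk3, a myosin light chain kinase, at least 8.54-fold, Fam131b at least 7.77-fold, Obox2 at least 6.28-fold, Tmem190 at least 5.55-fold and Uts2, the peptide hormone urotensin 2, at least 2.94-fold. Ddn, which encodes dendrin of podocytes and neurons, differed by 4.50 ± 0.60, and Cnn1, the smooth muscle protein calponin, by 4.08 ± 1.17. The call of Cnn1 was lost on leaving out any 1 of the day 5 arrays (adjusted p 0.0649 to 0.127). Col6a4, a chain of collagen VI, and Twist2, a mesenchymal transcription factor, each differed by 3.95.

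The fibrillar collagens form the fibres of scar tissue, and 7 of 11 were higher in the bound fraction, none lower (list median 1.16). Col1a1, whose promoter drives the tag, read 12.92, 13.07 and 12.95 on the bound arrays against 12.38, 12.31 and 12.18 on the unbound arrays. All bound arrays stood above all unbound arrays, as they or their reverse did for 43.0% of all genes. Col1a1 differed by 0.69 ± 0.19 (1.61-fold, adjusted p 0.035). Its call was lost on leaving out any 1 of the day 5 arrays (adjusted p 0.076 to 0.114). Col1a2 differed by 0.80 and Col3a1, its usual partner in scar, by 0.37, which did not pass (adjusted p 0.217). Differences were larger for the minor chains that regulate fibril diameter. Col5a1 read 12.00, 11.90 and 11.70 against 10.22, 9.79 and 9.92 (1.89 ± 0.24), Col5a3 differed by 2.51, Col11a1 by 2.65 and Col24a1 by 2.08. These minor chains did not overlap between the fractions, and they lay lower on the scale than Col1a1.

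Of 15 beaded, network and fibril-associated collagens, 6 were higher and none lower (median 1.46). Col16a1, a fibril-associated collagen, read 11.34, 11.25 and 10.84 on the bound arrays against 8.12, 8.21 and 7.65 on the unbound arrays, a difference of 3.15 ± 0.43 (8.88-fold, adjusted p 0.00264). Col7a1, the anchoring fibril collagen, differed by 2.54, and the collagen VI chains Col6a2 and Col6a3 by 1.81 and 1.45. The basement membrane collagens stood apart in direction: none of 8 was higher and 4 were lower. The lower chains were Col4a3 (-1.72), Col4a4 (-1.35), Col4a5 (-2.00) and Col4a6 (-1.56), of which the first 3 build the mature glomerular and tubular basement membrane. Col4a5 read 8.96, 7.26 and 9.82 on the bound arrays against 10.73, 10.55 and 10.75 on the unbound arrays, without overlap. The ubiquitous chains Col4a1 (0.22) and Col4a2 (0.36) did not pass. The list median was -0.56, but 0.16 when arrays were centred on their medians, under which Col4a3, Col4a4 and Col4a5 did not pass. The call of Col4a6 was lost on leaving out any 1 of the day 5 arrays (adjusted p 0.092 to 0.117). Those of Col4a4 and Col4a5 were each lost for 5 of these arrays.

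Enzymes that modify and cut procollagen were higher in 11 of 21 cases and lower in none (median 1.00). P4ha3, a prolyl hydroxylase subunit, read 9.86, 8.19 and 9.97 on the bound arrays against 6.10, 5.29 and 6.14 on the unbound arrays. Even the lowest bound array, 11, exceeded every unbound array, and the difference was 3.50 ± 0.70 (11.3-fold, adjusted p 0.00905). Bmp1, the procollagen C-proteinase, differed by 1.91, the prolyl 3-hydroxylases P3h3 and P3h1 by 1.89 and 1.67, and the collagen chaperone Serpinh1 by 0.80. For Bmp1, 1 of 3 probe sets had the opposite sign (-1.60), and its call was lost over their mean. Of 4 lysyl oxidases, which cross-link collagen and elastin, Loxl1 and Loxl3 passed. Loxl1 read 11.88, 11.29 and 12.24 against 9.02, 8.73 and 9.65 (2.67 ± 0.39, adjusted p 0.00294), and Loxl3 differed by 2.28. Lox itself differed by 0.44 and Loxl4 by 1.11, and neither passed.

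Elastic fibre and microfibril genes had the highest median of the 55 lists, 1.88, with 8 of 16 higher and none lower. Emilin1, a glycoprotein of elastic fibres, read 11.98, 11.49 and 11.74 on the bound arrays against 8.97, 9.09 and 9.20 on the unbound arrays. The 2 sets of arrays were tight and far apart, by 2.65 ± 0.26 (6.26-fold, adjusted p 0.00094). The microfibril proteins Mfap5 (2.93) and Mfap2 (2.90), the fibulins Fbln2 (2.80) and Fbln1 (2.51), the elastin precursor Eln (2.09) and the fibrillin Fbn2 (2.24) were also higher. Efemp1 (-0.27), Mfap3 (0.07), Ltbp3 (0.37) and Ltbp1 (0.44), the last 2 being carriers of latent TGF-beta, did not pass.

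Proteoglycans and matricellular proteins had positive medians with few members that passed. Of 12 small leucine-rich proteoglycans, Prelp (1.84) and Omd (2.27) were higher and none was lower, at a median of 1.45, or 1.06 with values set to at least the negative controls. Of 26 matricellular and adhesive glycoproteins, 2 were higher and none lower (median 1.03), a share near the 6.37% of all genes that were higher. Thbs4, a thrombospondin, read 9.39, 7.37 and 10.22 against 5.03, 4.34 and 5.87, a difference of 3.91 ± 0.73. Tnc, tenascin C of healing tissue, differed by 1.11 ± 0.27 on its brightest probe set but by -0.50 over the mean of its 2 probe sets, 1 of which had the opposite sign. Postn, a periostin known from fibrosis, read 11.67, 11.95 and 11.32 against 10.88, 9.79 and 9.18, with no overlap, but did not pass (1.69, adjusted p 0.0723). Fn1 (1.03), Ccn2 (0.21) and Sparc (0.36) did not pass either. Of 10 laminin chains, Lama2 (1.52) and Lamc3 (1.94) were higher and none was lower.

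Matrix turnover is set by proteases and their inhibitors, and this list had many members that passed: 16 of 32 were higher and 2 lower (median 1.40). Mmp3, stromelysin 1, read 11.21, 11.72 and 11.57 on the bound arrays against 9.96, 8.45 and 9.16 on the unbound arrays (2.31 ± 0.38). Its relative Mmp10 differed by 3.62, Mmp17 by 2.86, Mmp23 by 2.40, the gelatinase Mmp2 by 2.15 and the membrane-bound Mmp14 by 1.99. The inhibitor Timp1 differed by 1.98. Mmp7, an epithelial matrilysin, was lower (-2.06), as was Adamts1 (-1.17). Among cell surface receptors for matrix, the integrins Itga9 (2.22), Itgb5 (1.43) and Itga5 (1.16) were higher and Itga6 (-1.88), Itgb8 (-1.62) and Itgal (-1.11) lower, of 23 tested. Of 11 cadherins, mesenchymal Cdh11 was higher (0.90) and Cdh6, endothelial Cdh5, epithelial Cdh1 and Cdh2 were lower.

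Podocyte markers were higher beside the matrix genes. Their mean level was 8.24 to 9.57 on the bound arrays and 7.41 to 7.72 on the unbound arrays, and 7 of 16 markers were higher and 1 lower, at a median of 1.46 (0.98 with values set to at least the negative controls). Ddn read 10.10, 7.70 and 8.03 against 3.87, 4.70 and 3.77, and Wt1, a transcription factor of podocytes, 10.85, 9.51 and 10.48 against 7.23, 7.00 and 7.14. Neither overlapped. Nphs1, nephrin of the slit diaphragm, passed (3.94 ± 1.04) although array 11 at 3.52 lay below unbound array 14 at 3.73, and it was at least 4.80-fold higher. Podxl (0.15), Synpo (0.62), Ptpro (0.26) and Clic5 (-0.03) did not pass. The part of podocyte RNA in the matrix results was not tested.

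**Figure D3:**
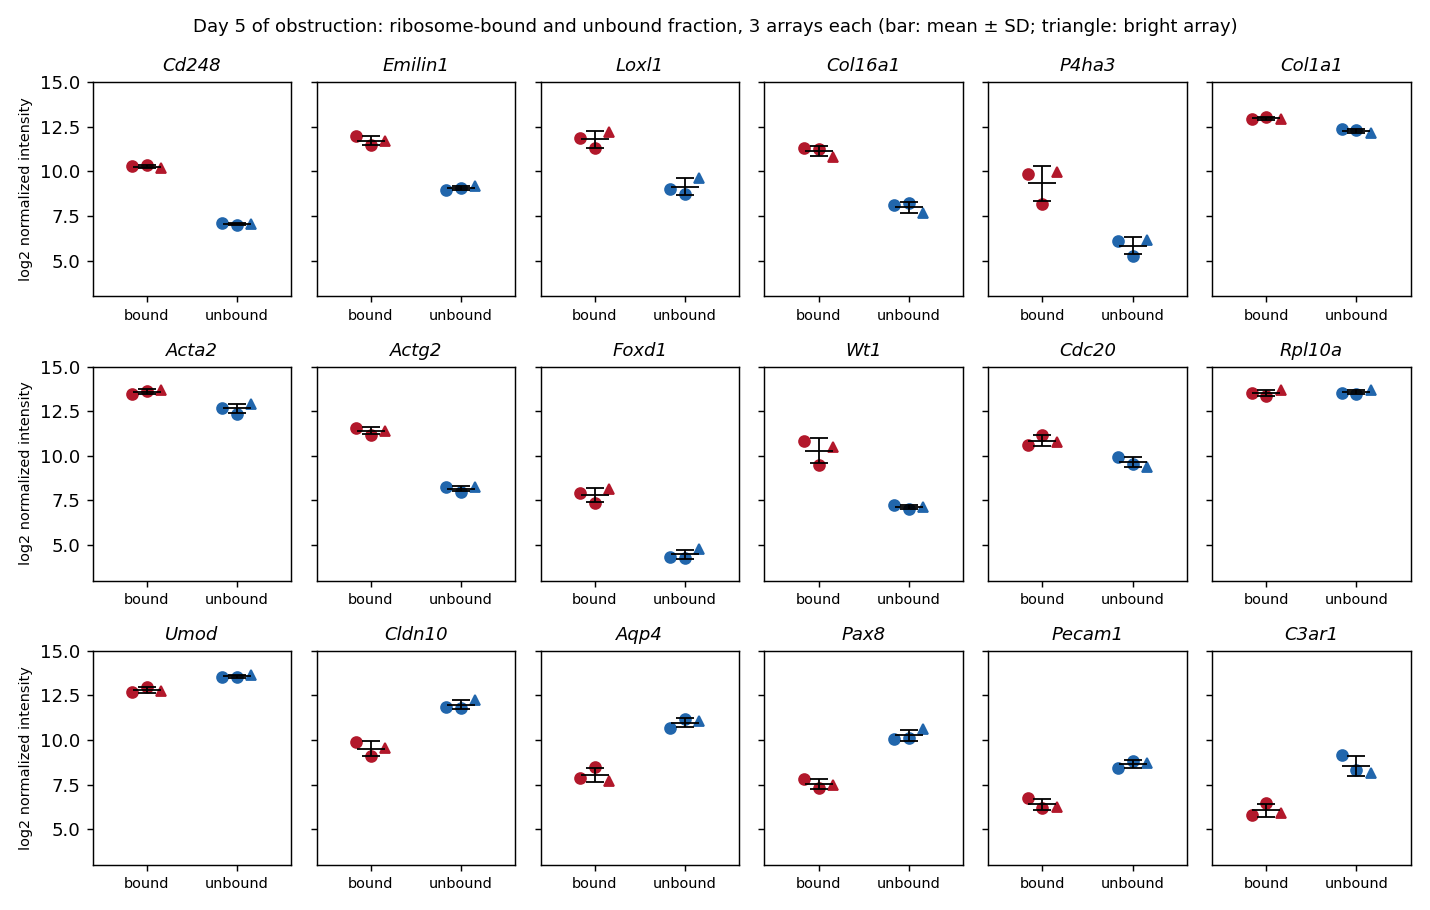
Log2 normalized intensity (vertical axis) of 18 genes on the 3 bound (red, left) and 3 unbound (blue, right) arrays of day 5, with the mean and SD of each group as bars, and the bright arrays 12 and 15 as triangles. The panels from Cd248 to Cdc20 stand higher in the bound fraction, Rpl10a is level, and those from Umod to C3ar1 stand lower. Only for Rpl10a do the fractions overlap, while they were separate for 43.0% of all genes. All plotted genes but Rpl10a had passed the test of these same arrays, so their separation is no sign of stability.

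Contractile genes of smooth muscle and myofibroblasts were higher in 14 of 26 cases and lower in none (median 1.07). Acta2, alpha smooth muscle actin and the usual myofibroblast marker, read 13.46, 13.65 and 13.70 on the bound arrays against 12.70, 12.37 and 12.90 on the unbound arrays, a difference of 0.95 ± 0.21 (1.93-fold, adjusted p 0.0142). All bound arrays were higher, but the call was lost over the mean of its 3 probe sets, 1 of which had the opposite sign. Cnn1 read 9.71, 10.27 and 9.72 against 6.70, 5.03 and 5.73, and the actin Actg2 11.57, 11.19 and 11.41 against 8.23, 7.97 and 8.26 (3.24 ± 0.69). Lmod1, which nucleates actin filaments in smooth muscle, differed by 3.87, the intermediate filament protein Des by 2.88, Tagln by 1.08 and the light chain Myl9 by 1.44. The regulators were higher too: Myocd, the smooth muscle coactivator myocardin, by 2.96 and its partner Srf, serum response factor, by 1.24. Of 16 striated muscle genes, Myom2, Actc1 (3.31) and Tnnt1 (2.66) were higher and none was lower, and the list median of 1.12 came to 0.42 with values set to at least the negative controls.

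Because contractile genes are textbook targets of serum response factor, promoter windows from 250 bases before to 50 after the RefSeq transcript start (GRCm38.p6) were searched on both strands for the CArG box that the factor binds, and for GGAATG, the core site of TEAD factors. Windows were found for 13406 of the 16864 genes and for 22 of 26 contractile genes. A CArG box occurred in 3 contractile windows (13.6%) and in 1.62% of all windows, and GGAATG in 8 (36.4%) and in 15.1%. Among genes higher in the bound fraction the shares were 2.11% and 18.4%, and among lower genes 1.79% and 16.6%. A match is a run of letters in this window only. The CArG box was counted only as CCWWWWWWGG, with W for A or T, so boxes that deviate from it were missed. The windows of 3 contractile genes that were higher in the bound fraction are shown to place these matches, 5′ to 3′ on the strand of the gene. Capitals mark 1 CArG box in the window of Myl9, 2 in that of Srf and 1 match to GGAATG, here in either orientation, in that of Acta2. The Acta2 window also holds ccctatatgg and ccttgtttgg, left in lower case. Each differs from the CArG pattern at 1 letter and was not counted. The Myl9 and Srf windows also hold strings 1 letter off the pattern, ccttgtaagg and ctttatatgg. How often such strings occur over all windows was not counted.
Myl9 promoter, chr2:156775214-156775513, plus strand: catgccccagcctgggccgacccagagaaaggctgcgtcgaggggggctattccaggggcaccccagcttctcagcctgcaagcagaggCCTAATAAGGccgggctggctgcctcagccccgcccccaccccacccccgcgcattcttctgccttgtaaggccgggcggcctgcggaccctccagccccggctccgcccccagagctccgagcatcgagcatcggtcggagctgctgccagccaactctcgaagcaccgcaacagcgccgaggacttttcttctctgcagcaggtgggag
Srf promoter, chr17:46556113-46556412, minus strand: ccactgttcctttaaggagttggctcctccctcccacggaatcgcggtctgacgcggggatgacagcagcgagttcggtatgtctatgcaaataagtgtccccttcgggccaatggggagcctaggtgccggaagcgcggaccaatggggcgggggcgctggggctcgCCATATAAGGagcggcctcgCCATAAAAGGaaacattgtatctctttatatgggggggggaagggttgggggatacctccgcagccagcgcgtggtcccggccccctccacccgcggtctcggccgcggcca
Acta2 promoter, chr19:34255324-34255623, minus strand: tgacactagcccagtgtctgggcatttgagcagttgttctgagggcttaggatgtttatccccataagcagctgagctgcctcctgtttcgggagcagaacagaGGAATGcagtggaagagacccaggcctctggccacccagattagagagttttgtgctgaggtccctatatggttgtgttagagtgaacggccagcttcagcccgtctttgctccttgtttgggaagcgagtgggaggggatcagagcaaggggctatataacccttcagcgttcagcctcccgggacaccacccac

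Pericyte and fibroblast identity genes that passed were mostly higher in the bound fraction. Of 17 pericyte and mural cell markers, 6 were higher and none lower (median 1.23). Cd248, endosialin of pericytes and activated fibroblasts, read 10.31, 10.34 and 10.18 on the bound arrays against 7.11, 6.99 and 7.06 on the unbound arrays, with the arrays of each fraction close together (3.23 ± 0.33, 9.37-fold, adjusted p 0.00115). Ndufa4l2 differed by 2.85, the Notch target Heyl by 2.44 and Cspg4, the NG2 proteoglycan, by 2.03. Of 24 fibroblast markers, 12 were higher and 1, Cd34 (-2.09), lower, at a median of 1.47. Fap, fibroblast activation protein, read 10.62, 10.77 and 10.88 against 7.83, 7.39 and 7.75 (3.10 ± 0.69), and Twist1 differed by 2.98. S100a4, once used as a fibroblast marker, read 10.08, 10.02 and 10.06 against 10.20, 10.14 and 9.80, so the fractions overlapped (0.01, adjusted p 0.99). Vim (0.41) did not pass.

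Among renin lineage genes 3 of 9 were higher (Crip1, Nr4a1 and the angiotensin receptor Agtr1a) and none lower. Their median was 1.05, but 0.00 with values set to at least the negative controls. Crip1, a gene of renin-expressing cells, read 12.69, 12.82 and 12.84 on the bound arrays against 11.45, 11.34 and 11.54 on the unbound arrays (1.34 ± 0.24).

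Transcription factors that pattern the renal stroma were higher in 13 of 27 cases and lower in none (median 1.55). Foxd1, the factor that defines the stromal progenitors of kidney pericytes, read 7.92, 7.36 and 8.13 on the bound arrays against 4.33, 4.29 and 4.76 on the unbound arrays (3.34 ± 0.59, 10.1-fold, adjusted p 0.00591). No bound array approached an unbound one. Hic1 differed by 3.07, Foxd2 by 2.93, Gata6 by 2.70, Snai1 by 2.68, Nr2f1 by 2.21 and Tcf21 by 1.74, and Tbx18 was at least 4.69-fold higher. For Gata6, 1 of 3 probe sets had the opposite sign (-1.21), and its call was lost over their mean. Foxd1 and Tcf21 are also known from podocytes. The Hox genes, which mark position along the body axis, passed in both directions: 4 of 31 were higher and 5 lower. Of all genes, 6.37% were higher and 7.74% lower. The Hox median was 0.45, but 0.00 with values set to at least the negative controls. Both fractions lay at the negative controls for 5 of the 31. Hoxa11 read 10.98, 10.77 and 11.17 against 8.75, 8.23 and 8.58 (2.46 ± 0.45), and the C cluster members Hoxc8 (1.43) and Hoxc10 (1.18) were higher. Hoxc13 (1.85) passed with both fractions at the negative controls. Lower were Hoxd3 (-2.11), Hoxb5 (-1.47), Hoxb9 (-0.98), Hoxd8 (-0.58) and Hoxd1, which had its bound fraction at the negative controls and came to 0.089 with values set to at least the negative controls.

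**Figure D4:**
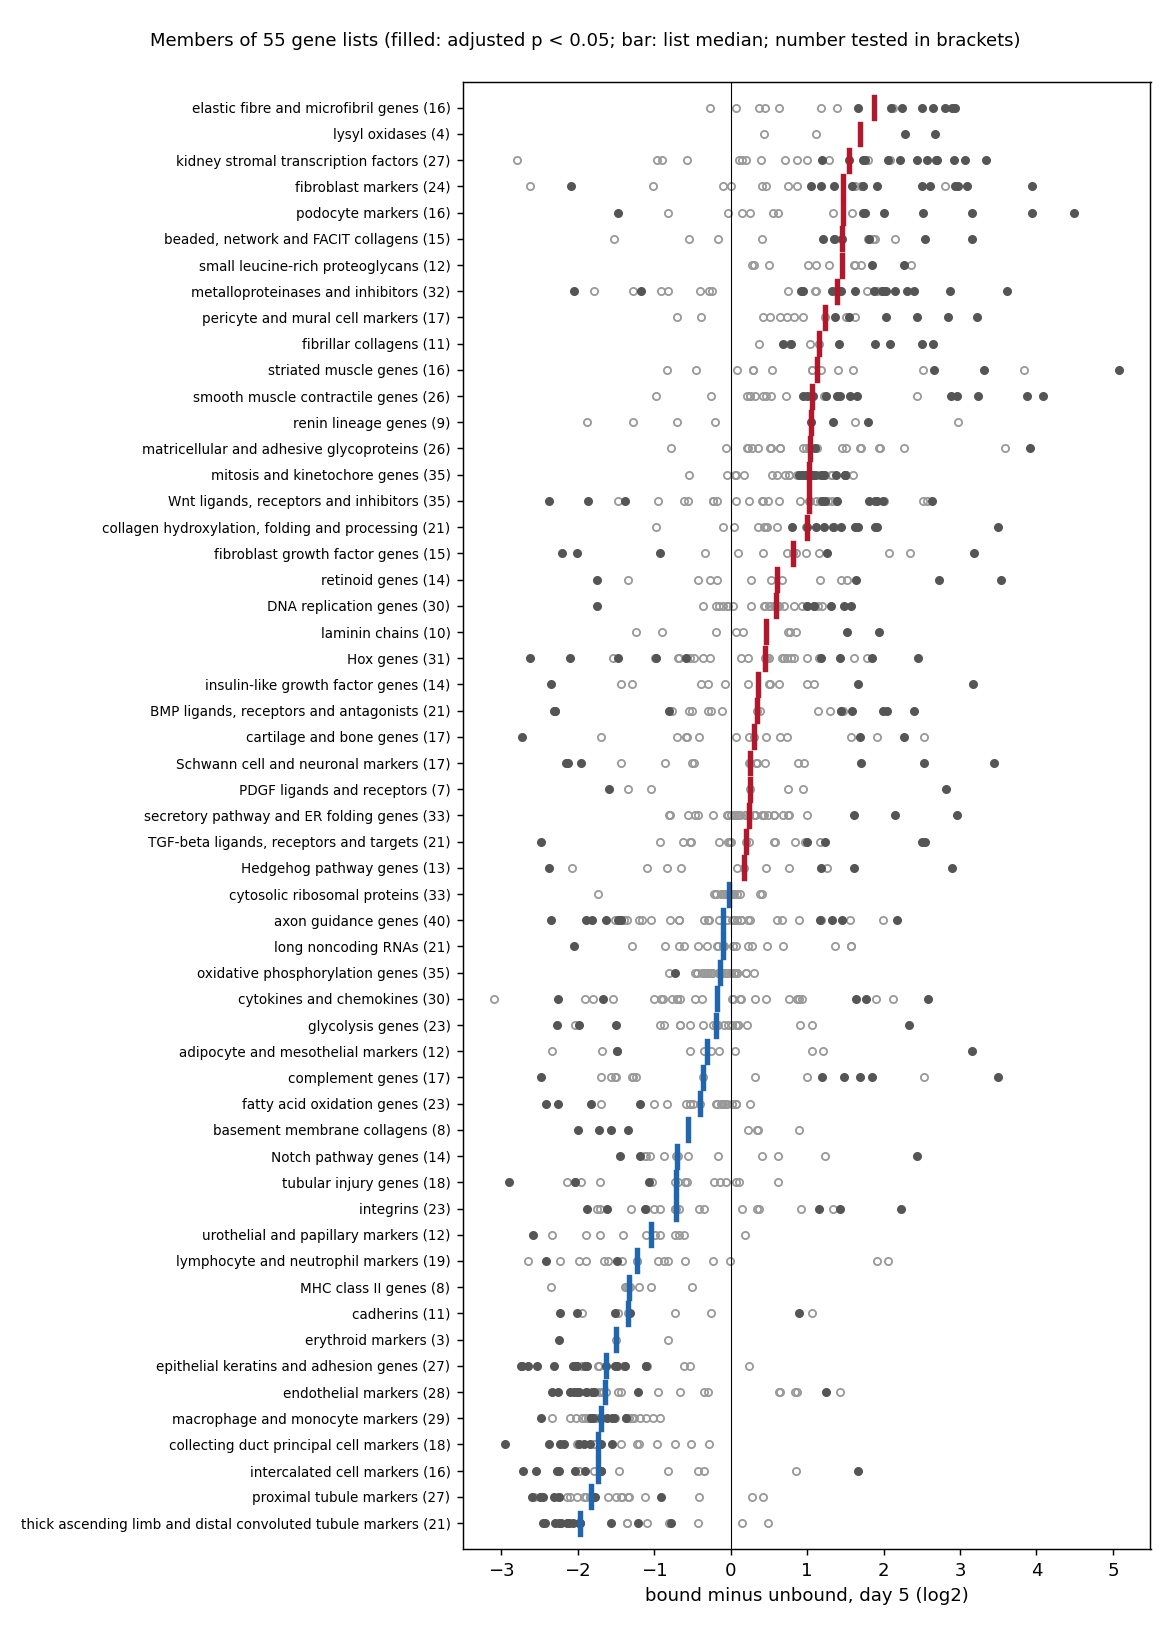
Differences between bound and unbound fraction on day 5 (horizontal axis, log2) for every tested member of 55 gene lists, 1 row a list, sorted by median. Filled points passed, open points did not, and the bar is the list median, red above and blue below zero. Elastic fibre genes are at the top with a median of 1.88 and thick ascending limb and distal convoluted tubule markers at the bottom with -1.97.

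Signalling genes passed in both directions, where 6.37% of all genes were higher and 7.74% lower. In the TGF-beta family, which drives fibrosis, 4 of 21 were higher and 1 lower. Tgfb3 read 10.36, 10.03 and 10.35 on the bound arrays against 7.76, 7.51 and 7.83 on the unbound arrays (2.55 ± 0.29, 5.84-fold, adjusted p 0.0015). Tgfb2 differed by 1.23 and the activin subunit Inhba by 2.51. Tgfb1 overlapped between the fractions, at 10.79, 8.26 and 10.12 against 8.55, 9.21 and 8.49, and did not pass. Fst, follistatin, which binds activin, was lower (-2.48), and the receptors Tgfbr1 (-0.53) and Tgfbr2 (-0.03) did not pass.

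For BMPs, 5 of 21 were higher and 3 lower. The antagonists Grem1 (at least 4.90-fold), Nbl1 (2.05) and Chrd (1.59) were higher, and the antagonists Sostdc1 (-2.30) and Chrdl1 (-2.31), the first a gene of distal tubules, were lower. In the platelet-derived growth factor group the ligand Pdgfb, made by endothelium, was lower (-1.59) and the receptor-like Pdgfrl higher (2.82), of 7 tested. Pdgfrb read 12.28, 12.17 and 12.17 against 11.20, 11.22 and 11.37, without overlap, at 0.94 ± 0.32. In the Hedgehog pathway, the ligand Shh was lower (at least 2.71-fold), while the transcription factors Gli2 (2.89) and Gli3 (1.61) and the coreceptor Gas1 (1.18) were higher, of 13 tested. For Shh, 1 of 2 probe sets had the opposite sign, and its call was lost over their mean. Gli1, a marker of perivascular mesenchymal progenitors, lay at the negative controls in both fractions.

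Of 35 Wnt genes, 8 were higher and 3 lower (median 1.02, or 0.49 with values set to at least the negative controls). Wnt2 (2.63), Wnt4 (1.92) and Wnt11 (1.89) among the ligands, Ror2 (1.80) and Fzd2 (1.19) among the receptors, and Dkk3 (1.99), Dkk2 (1.39) and Frzb (1.24) among the secreted modulators were higher. Dkk3 read 12.40, 12.16 and 12.14 on the bound arrays against 10.17, 10.32 and 10.24 on the unbound arrays, a tight separation (1.99 ± 0.25). The receptors Fzd6 (-2.38) and Fzd4 (-1.86) and the ligand Wnt7b (-1.38) were lower. Of 14 insulin-like growth factor genes, Igfbp6 (3.17) and Htra1 (1.66) were higher and Igfbp1 (-2.35) lower, against 6.37% and 7.74% of all genes. Of 15 fibroblast growth factor genes, Fgf2 (at least 7.29-fold) and Fgfr1 (1.26) were higher, and Fgf1 (-2.21), Fgfr2 (-2.01) and Fgf9 (-0.93) lower. The calls of Fgfr1 and Fgfr2 were lost over probe set means, and 1 of 3 Fgfr2 probe sets had the opposite sign.

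In the Notch pathway Heyl was higher and the ligand Jag1 (-1.45) and the target Nrarp (-1.19) were lower, of 14. Notch3, the mural cell receptor, differed by 1.23 and did not pass. Of 40 axon guidance genes 4 were higher and 6 lower, where 6.37% of all genes were higher and 7.74% lower. Their median of -0.10 changed sign, among other settings, with the arrays centred on their medians. Slit3 differed by 2.17, Ephb3 by 1.46, Unc5b by 1.33 and Nrp2 by 1.17, and Sema3c (-2.35) and endothelial Robo4 (-1.89) were the lowest. Of 14 retinoid genes, Crabp1 (at least 8.94-fold), the carrier Rbp4 (2.73) and Rarres2, chemerin (1.64), were higher and the retinal dehydrogenase Aldh1a3 (-1.74) lower.

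Cytokines and chemokines passed about as often as all genes, of which 6.37% were higher and 7.74% lower. Of 30, 3 were higher and 2 lower. The higher ones were Il11, a cytokine of activated fibroblasts (2.58), the alarmin Il33 (1.78) and Cxcl14 (1.63). The lower ones were Il1b (-1.67) and Ccl20 (at least 1.67-fold). The fractions overlapped for Ccl20, and its call was lost with values set to at least the negative controls (adjusted p 0.265). Il11 read 9.73, 10.97 and 9.09 on the bound arrays against 8.39, 6.89 and 6.78 on the unbound arrays, and the lowest bound value, on array 12, stood above the highest unbound value. Of 17 complement genes, 5 were higher and 1 lower. C1ra and C1s1, the proteases of the first component, differed by 3.50 and 1.85, Colec12 by 1.69, Masp1 by 1.48 and the inhibitor Serping1 by 1.19. C1ra read 11.95, 10.68 and 10.91 against 7.73, 7.64 and 7.67, with its unbound arrays close together. The receptor C3ar1 was lower (-2.49), and the C1q chains of macrophages, C1qa (-1.69), C1qb (-1.29) and C1qc (-1.51), did not pass.

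Of 35 mitosis and kinetochore genes, 11 were higher and none lower in the bound fraction, at a median of 1.02. Cdc20, an activator of the anaphase-promoting complex, read 10.62, 11.17 and 10.77 on the bound arrays against 9.94, 9.57 and 9.39 on the unbound arrays (1.22 ± 0.31, 2.33-fold, adjusted p 0.0248). Nuf2 (1.50) and Ttk (1.49) of the kinetochore, the kinesin Kif4 (1.38), Birc5 (1.18), the topoisomerase Top2a (1.04) and the kinase Cdk1 (0.93) were higher. Ttk came to -0.75 over the mean of its probe sets. Mki67, the proliferation marker, differed by 0.71 and did not pass. Of 30 DNA replication genes, 5 were higher (Cdc45, Ccne1, Rrm1, Mcm3 and Ccnd3) and 1, the cyclin Ccnd1, was lower (-1.75).

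Genes of mitosis commonly carry a cell cycle homology region with the letters TTTGAA near the transcript start, next to CCAAT boxes. TTTGAA, on either strand, was found in 26 of 31 mitosis windows (83.9%) and in 15.3% of all windows, and CCAAT in 74.2% and 41.9%. Among all genes higher in the bound fraction the shares were 13.9% and 42.7%, and among lower genes 14.4% and 41.7%. The windows of 3 genes that were higher in the bound fraction are shown to place the matches, with TTTGAA or its reverse complement in capitals.
Cdc20 promoter, chr4:118437294-118437593, minus strand: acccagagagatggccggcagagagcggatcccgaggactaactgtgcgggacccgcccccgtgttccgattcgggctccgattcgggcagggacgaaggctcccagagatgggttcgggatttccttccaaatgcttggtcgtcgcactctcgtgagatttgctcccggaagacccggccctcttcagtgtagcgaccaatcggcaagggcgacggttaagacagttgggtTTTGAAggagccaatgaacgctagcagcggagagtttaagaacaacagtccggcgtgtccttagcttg
Top2a promoter, chr11:99024140-99024439, minus strand: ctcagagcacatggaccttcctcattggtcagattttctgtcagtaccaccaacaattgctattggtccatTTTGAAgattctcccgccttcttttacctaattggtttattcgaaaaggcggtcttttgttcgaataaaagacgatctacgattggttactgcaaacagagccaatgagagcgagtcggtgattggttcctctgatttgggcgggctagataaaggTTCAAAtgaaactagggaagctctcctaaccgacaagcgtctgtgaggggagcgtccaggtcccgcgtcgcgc
Cdk1 promoter, chr10:69352863-69353162, minus strand: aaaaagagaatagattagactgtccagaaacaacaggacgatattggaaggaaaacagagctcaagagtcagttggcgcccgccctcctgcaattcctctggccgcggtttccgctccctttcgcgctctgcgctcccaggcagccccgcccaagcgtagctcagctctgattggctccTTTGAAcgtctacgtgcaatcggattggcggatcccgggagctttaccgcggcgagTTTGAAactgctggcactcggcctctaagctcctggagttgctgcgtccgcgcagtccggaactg
The nearest match began 18 bases before the transcript start in Cdc20, 23 bases before it in Top2a and 15 bases before it in Cdk1.

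Genes of the secretory pathway mostly did not pass: 3 of 33 were higher and none lower (median 0.24), where 6.37% of all genes were higher. Creb3l1, a membrane-bound transcription factor that controls procollagen secretion, read 10.35, 10.86 and 10.48 on the bound arrays against 7.66, 7.29 and 7.83 on the unbound arrays (2.97 ± 0.28, 7.81-fold, adjusted p 0.00094). It was with Emilin1 the gene of lowest adjusted p among those named. The retrieval receptor Kdelr3 (2.15) and the isomerase Pdia5 (1.61) were the others. Of 33 cytosolic ribosomal proteins none passed in either direction (median -0.03), and Rpl10a, the endogenous counterpart of the tagged protein, read 13.53, 13.34 and 13.71 against 13.53, 13.46 and 13.68. With the arrays centred on their medians the ribosomal protein median was 0.98, against 0.41 for all genes. Of 21 long noncoding RNAs, Neat1, a nuclear RNA, was lower (-2.05) and none was higher.

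Genes of the tubules were lower in the bound fraction. Of 21 markers of the thick ascending limb and distal convoluted tubule, 14 were lower and none higher (median -1.97). Cldn10, a claudin of the thick limb, read 9.91, 9.08 and 9.56 on the bound arrays against 11.86, 11.81 and 12.27 on the unbound arrays (-2.46 ± 0.38, adjusted p 0.00374). Umod, uromodulin, read 12.67, 12.97 and 12.73 against 13.51, 13.54 and 13.65, so it was lower in every bound array and still among the most abundant messages there. Umod came to 0.19 with the arrays centred on their medians. Egf (-2.12), Slc12a1 (-1.56) and Calb1 (-2.43) were lower. For Calb1, 2 of 4 probe sets had the opposite sign, and its call was lost over their mean.

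Of 18 principal cell markers, 9 were lower and none higher (median -1.74). Aqp4, a water channel, read 7.87, 8.48 and 7.73 against 10.67, 11.17 and 11.07 (-2.95 ± 0.39, adjusted p 0.00229). Of 16 intercalated cell markers, 8 were lower and 1, Insrr, higher (1.67), with Foxi1, their defining transcription factor, at -2.55. Of 27 proximal tubule markers, 8 were lower and none higher (median -1.82), and the phosphate transporter Slc34a1 differed by -1.85 (adjusted p 0.129). Of 27 epithelial keratin and adhesion genes, 15 were lower and none higher (median -1.63). Pax8, the tubular transcription factor, read 7.83, 7.30 and 7.46 against 10.07, 10.10 and 10.62 (-2.73 ± 0.39). However, 1 of the 2 Pax8 probe sets had the opposite sign (0.68). Ocln, Cldn8 and Epcam differed by -2.74, -2.65 and -2.02. The calls of Pax8 and Epcam were lost over probe set means. The mean level of the epithelial genes was 8.90 to 9.86 on the bound arrays and 11.02 to 11.04 on the unbound arrays, so epithelial messages were present in both fractions.

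Injured tubule genes showed the same direction where they passed, with 3 of 18 lower: Havcr1 (-2.04), the fibrinogen chain Fgb (-2.90) and Lcn2 (-1.07). Of all genes, 7.74% were lower. The call of Fgb was lost on leaving out any 1 of the day 5 arrays, that of Lcn2 for 5 of them and that of Havcr1 for 4. Havcr1 and Lcn2 also did not pass with the arrays centred on their medians. Havcr1, kidney injury molecule 1, read 11.49, 11.16 and 9.32 on the bound arrays against 12.71, 12.96 and 12.42 on the unbound arrays, with array 12 the lowest. Anxa2 (0.07), Tnfrsf12a (-0.06) and Clu (-0.60) did not pass.

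Endothelial markers were lower in 11 of 28 cases and higher in 1, Vwf (1.25), at a median of -1.65. Pecam1 read 6.77, 6.21 and 6.22 on the bound arrays against 8.43, 8.84 and 8.69 on the unbound arrays (-2.25 ± 0.61), and Cdh5 differed by -2.01. The call of Pecam1 was lost on leaving out any 1 of the day 5 arrays (adjusted p 0.056 to 0.0962). Kdr read 3.12, 7.33 and 5.45 against 7.38, 6.64 and 7.52, so the fractions overlapped and it did not pass. Of 29 macrophage and monocyte markers, 9 were lower and none higher (median -1.69). C3ar1 read 5.81, 6.47 and 5.89 against 9.15, 8.35 and 8.14 (-2.49 ± 0.44), and Cd14, Lyz2 and Aif1 differed by -1.83, -1.55 and -1.69. The mean level of these markers was 8.09 to 9.34 on the bound arrays and 10.11 to 10.59 on the unbound arrays. Of 8 MHC class II genes none passed (median -1.33), and of 19 lymphocyte and neutrophil markers Cd4 (-2.42) and Cd79b (-1.49) were lower. The 12 lowest differences included the immune cell genes Rgs1 (at least 4.25-fold lower) and Slfn4 (at least 7.85-fold). Plau, urokinase, a protease also made by kidney tubules, was among them and read 6.14, 4.05 and 6.83 against 9.89, 9.76 and 8.46 (-3.70 ± 0.71). They also included Hmgcll1 (at least 7.91-fold), Lrrc19, Ugt3a2, Akr1d1, Ros1, Ttyh1, Tmod4, Rbm11 and the noncoding Snhg14.

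Markers of other lineages passed in both directions. Of 17 Schwann cell and neuronal markers 3 were higher (Tubb3, Ngfr and Nefm) and 3 lower (Mbp, Nefl and Erbb3), where 14.1% of all genes passed. Both fractions lay at the negative controls for 10 of the 17, Nefm and Nefl included. Of 12 adipocyte and mesothelial markers Fabp4 was lower (-1.49) and Wt1 higher, of 17 cartilage and bone genes Dmp1 (2.27) and Matn2 (1.69) were higher and Sox6 lower (-2.73), and of 12 urothelial markers Trp63 was lower (-2.59). For Trp63, 2 of 4 probe sets had the opposite sign, and its call was lost over their mean and with only the day 5 arrays. Of 3 erythroid genes Slc4a1 was lower (-2.25). Among metabolic genes, 1 of 35 oxidative phosphorylation genes (Atp5b), 4 of 23 fatty acid oxidation genes and 3 of 23 glycolysis genes were lower. The share of all genes that were lower was 7.74%. The regulators and enzymes Ppargc1a (-2.42), Acox2 (-2.26), Fabp3 (-1.83) and Acadm (-1.19) made up the fatty acid group. Slc16a3, a lactate exporter, was higher (2.33). Atp5b came to 0.11 with the arrays centred on their medians.

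The sham kidney was set beside the obstructed one, sharing no array. Xist stood at 6.07 to 9.84 on the day 0 arrays, against 1.16 to 3.96 on day 5 arrays 10, 11, 13 and 14. The days were thus not matched in this signal. On day 0, 811 genes (4.81%) were higher and 691 (4.1%) lower in the bound fraction. Of the 1075 genes higher on day 5, 411 (38.2%) were also higher on day 0, which is 50.7% of the 811, and 899 (83.6%) had a positive difference there, as did 7096 of all 16864 genes. Of the 1305 lower on day 5, 238 (18.2%) were also lower on day 0, which is 34.4% of the 691, and 1171 (89.7%) had a negative difference, as did 9768 of all 16864 genes. Col1a1 differed by 2.43 on day 0, Emilin1 by 3.01, Loxl1 by 3.19, Mmp3 by 2.74, Foxd1 by 4.62 and Pax8 by -1.70.

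Only 3 genes (0.0178%) passed the test of the change in enrichment between the days, and 2395 had an unadjusted p below 0.05. No other difference between the days in this text is therefore a called change. Col1a1 read 11.54, 11.59 and 11.70 on the day 0 bound arrays against 8.95, 9.05 and 9.56 on the unbound arrays, and its enrichment differed between the days by -1.74 ± 0.27 (adjusted p 0.0592). The difference between the days was -2.40 for Wt1 (adjusted p 0.0923) and -1.08 for Acta2 (adjusted p 0.182). For P4ha3 both day 0 fractions lay at the negative controls, so no size is given. Podocyte markers had a median of 1.46 on day 5 and 3.19 on day 0, with 7 and 13 of 16 higher. Mitosis genes had 1.02 and -0.61, basement membrane collagens -0.56 and 0.77, endothelial markers -1.65 and -0.05, and elastic fibre genes 1.88 and 1.50. These differences of list medians were not tested.

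**Figure D5:**
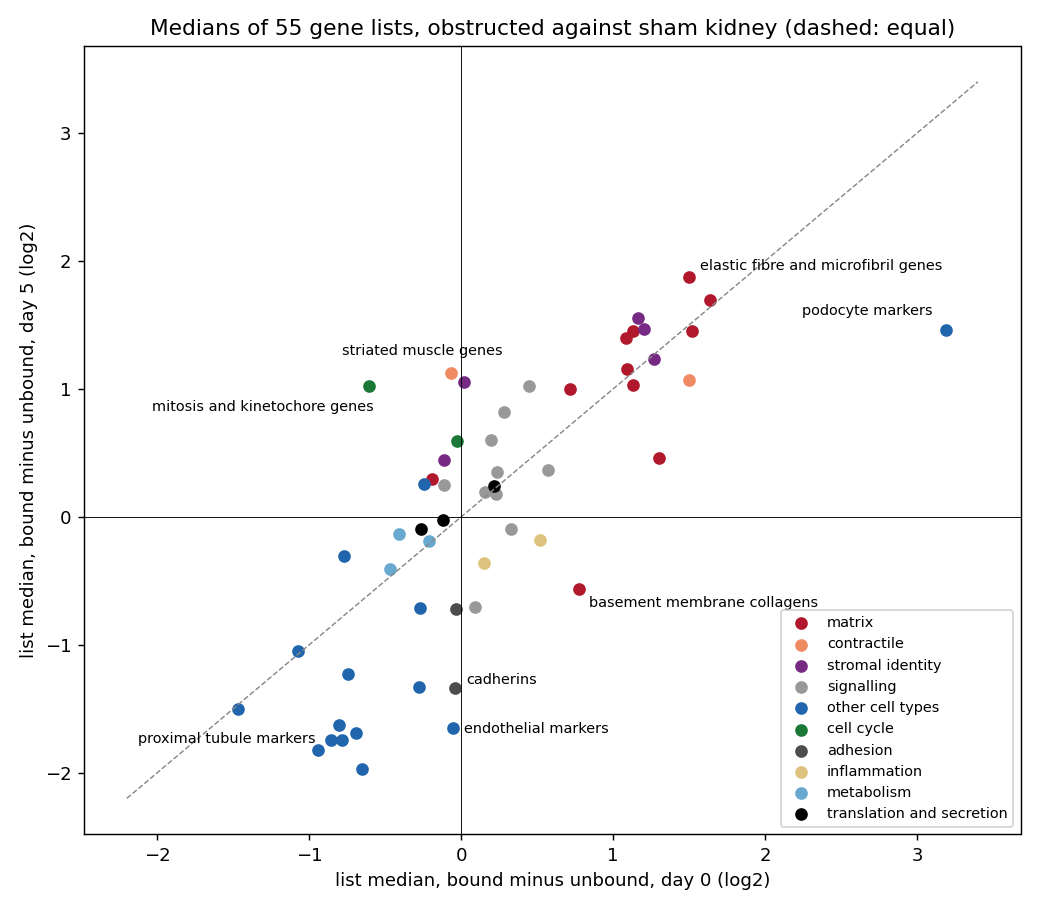
Median difference between bound and unbound fraction of 55 gene lists in the obstructed kidney on day 5 (vertical axis, log2) against the sham kidney on day 0 (horizontal axis, log2), coloured by subject. The dashed line marks equal medians. Podocyte markers lie right of it at 3.19 on day 0 and 1.46 on day 5, mitosis genes above it at -0.61 and 1.02, and endothelial markers below it at -0.05 and -1.65.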

How the data were processed

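Polysomal RNA was amplified in 1 round with a NuGen kit and biotin-labelled, per the labels, and read on one-colour Affymetrix arrays. The deposited values are the authors' linear intensities, 1 per probe set and array; how probes were summarised and scaled is not given in the sources used here. Members and gene lists were chosen with earlier results of these data known.

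Of the probe sets, 34945 matched 1 gene, and the brightest stood for each of 18193 genes. Values were log2(value + 1), quantile normalized over 15 arrays; 16864 genes above the 25th percentile on at least 3 arrays were tested. Limma 3.58.1 in R 4.3.3 fitted 5 group means and 2 contrasts of bound minus unbound with their difference; p-values were adjusted by Benjamini-Hochberg. The highest of 27 negative controls set each array's floor.

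Named genes were the 12 highest and 12 lowest without overlap (clone names left out), up to 4 members of each list that passed with the largest differences, preset landmark genes and those with a called change; other list members are named with their values. Bnipl and the most abundant genes were named after their values were seen. In simulated data with only 200 of 16864 genes shifted on day 5, 0% of 2-fold, 56% of 4-fold and 82% of 8-fold changes were recovered. In the real data 2380 genes passed, so the adjustment was less strict and these rates need not hold there. Alternatives tried were other filters, median centring, probe set means, only the arrays compared, a trended prior, array weights, a pseudocount of 16, brightness and Y-linked signal as covariates, a floor, a stricter threshold and leaving out arrays. RefSeq promoter windows were of GRCm38.p6, and matplotlib 3.10.9 drew the figures.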

Additional observations from a re-analysis of the deposited data

Results flagged for a closer look

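Of all genes tested, 3 stood out because their difference between bound and unbound fraction itself differed between day 5 and day 0. Kcnmb4, a regulatory subunit of a calcium-activated potassium channel, read 5.64, 5.21 and 5.06 on the day 5 bound arrays against 1.16, 1.28 and 1.94 on the unbound arrays, and 1.50, 1.19 and 1.58 against 2.58, 3.86 and 3.28 on day 0. Its enrichment changed by 5.66 ± 0.56 (limma, adjusted p 0.00441), and was at least 2.77-fold on day 5, with the unbound fraction at the negative controls. For the unannotated C130073F10Rik the fitted change was 3.75 (adjusted p 0.0185), with both fractions at the negative controls on both days. Its call was lost, among other settings, with median centring (adjusted p 0.102), a trended prior (adjusted p 0.0825), a pseudocount of 16 (adjusted p 0.0616) and without the bright arrays (adjusted p 0.282). Cenph, a kinetochore protein, read 8.25, 7.72 and 8.60 against 7.29, 7.10 and 7.20 on day 5 and 1.79, 1.49 and 1.79 against 3.93, 3.87 and 4.34 on day 0, and changed by 3.35 (adjusted p 0.0207). With values set to at least the negative controls, the values were 1.58 for Kcnmb4 (adjusted p 0.123) and 1.24 for Cenph (adjusted p 0.171), and neither passed. The means of both day 0 fractions lay at or below the negative controls for all 3 genes, so the fitted changes rest in part on values not above background.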

How the results depend on the processing

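The number of genes that passed on day 5 moved by over 1.5 times under 3 settings besides leaving out single arrays. With array weights 6038 genes passed (2759 higher and 3279 lower), without the bright arrays 1 (0 higher and 1 lower), and at an adjusted p under 0.01 there were 575 (301 higher and 274 lower). Median centring left 757 lower. Leaving out 1 array gave 844 to 1739 genes, 416 to 751 higher and 428 to 988 lower. On day 0, where 1502 passed, median centring gave 845, array weights 4306, leaving out the bright arrays 313, the stricter threshold 428, and leaving out 1 array 520 to 1142. The 3 changes in enrichment became 17 with the 50th percentile filter, 1 with median centring, 338 with only the arrays of day 0 and day 5, 59 with a trended prior, 1936 with array weights, 47 with a pseudocount of 16, 67 with the floor, 1 with the stricter threshold and 1 to 7 without 1 array. Of 204 named genes that passed, 0 passed without the bright arrays (adjusted p 0.0552 to 0.314, and 189 had an unadjusted p below 0.05), 155 of 203 passed over probe set means, 181 with median centring, and 106 to 168 without 1 array. Directions reversed for Atp5b (0.11) and Umod (0.19) with median centring, Tnc (-0.50) and Ttk (-0.75) over probe set means, and Hoxd1 (0.089) with the floor; the cause was not tested. Genes lost over probe set means that had a probe set of opposite sign also included Cdh2, Fzd6, Neat1, Rrm1, Fabp3 and Snhg14. No paired analysis was possible because no replicate number is shared by 2 groups. A fit with brightness as a block, which sets arrays 12 and 15 with the bright arrays 6 and 9, called 2243 genes on day 5. Signal near the negative controls limits the genes given as lower bounds.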
